A study of Oncorhynchus mykiss with 15 samples.

Results

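The genes described here are the transcription factors that give hepatocytes their identity, together with the nuclear receptors that control their metabolism, in rainbow trout (Oncorhynchus mykiss) liver. A gene was taken where any entry of its deposited name matched 1 of 33 symbols, ignoring case and a final copy letter a or b. This gave 97 genes, called copies below, of 34965 in the deposited table. Of the 33 symbols, 30 had a gene, and 29 of these had 2 or more copies. No gene carried the name foxa3, esrra or thra. Liver RNA of fish aged 150 days was sequenced in 15 libraries, with 3 libraries per group. The series is about hypoxia of different lengths, and its groups are coded N, H3h, H12h, H24h and R3h, codes that the labels leave unexplained and that are kept here. Times of 3, 12 and 24 h are given for the H groups and of 3 h for R3h. N has no time and no library matched to each of them, so condition and elapsed time cannot be told apart. Livers were frozen in liquid nitrogen and RNA was taken with Trizol. The labels do not say whether the 3 libraries of a group came from separate fish, so p-values measure only the spread between these libraries.

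Hepatocyte identity rests on a network of factors that bind each other's genes. HNF4A and the FOXA proteins keep liver genes accessible and active, C/EBP proteins switch between metabolic and acute-phase programmes, and PROX1, ONECUT factors and NR5A2 (LRH-1) act in the same circuits. Many nuclear receptors are ligand-dependent factors. PPARs sense fatty acids, LXR (NR1H3) senses oxysterols, RARs bind retinoic acid and THRB binds thyroid hormone, and most of these bind DNA as a heterodimer with a retinoid X receptor (RXRA, RXRB or RXRG). These roles are known mainly from mammals. Trout carry many duplicated genes. Reads can be shared between near-identical copies, which makes the value of a single copy less certain than that of all copies together.

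Levels are FPKM, which divide by gene length and by the library total and so allow a comparison between genes. C/EBP beta and delta and CREB3L3 were the most abundant, as the plot of summed levels shows. Summed over copies and averaged over the 15 libraries, cebpb reached 263 FPKM, creb3l3 144 FPKM and cebpd 106 FPKM. The next group lay between 21.7 FPKM for cebpa and 41.3 FPKM for foxa1, with rxrb at 37.1, hnf4a at 31.4 and foxa2 at 26.8 FPKM. Nuclear receptors other than HNF4A and RXRB were lower. The sums were 10.3 FPKM for rxra, 7.82 FPKM for pparg, 5.67 FPKM for nr1h3, 5.12 FPKM for ppard and 2.70 FPKM for ppara. The retinoic acid receptors were lower still, at 1.49 FPKM for rara, 0.535 FPKM for rarg and 0.175 FPKM for rarb. Within a symbol, 1 copy often carried most of the signal: creb3l3b 110524283 averaged 120.3 of the 144 FPKM of the 5 creb3l3 copies. A single copy could be nearly silent, and 14 of the 97 copies averaged under 0.05 FPKM.

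**Figure D1:**
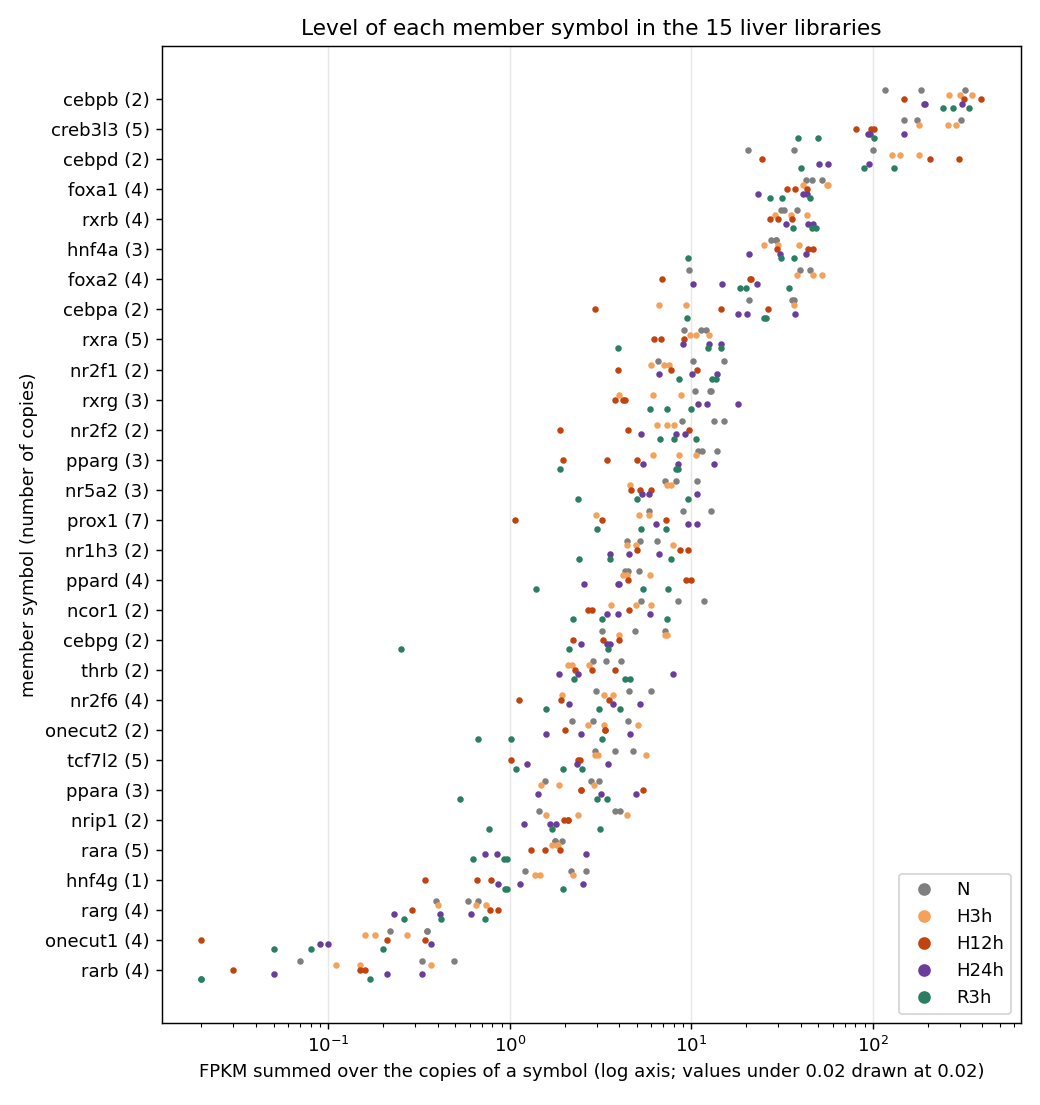
FPKM summed over all copies of a symbol (log axis) for the 30 symbols with a gene, ordered by mean level; each point is 1 library, coloured by group. The symbols span from 0.175 FPKM for rarb to 263 FPKM for cebpb, and single R3h points lie far to the left for symbols such as cebpg, hnf4a and ppara.

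Copies with a mean of at least 0.5 FPKM were tested, 67 of 97, covering 27 symbols. Onecut1, rarb and rarg had no tested copy. Just inside the limit lay Tcf7l2 110491463 at 0.554, rxrga 110508859 at 0.593 and rarab 110486146 at 0.612 FPKM. Just outside lay PPARD 101268900 at 0.445, RARG 110491992 at 0.361 and raraa 110491557 at 0.357 FPKM. A copy that is high in a single group can pass this limit through that group alone, so the tested copies are not a sample of all copies.

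Libraries held 45.4 to 70.4 M counts, of which the 97 copies took 0.0981% to 0.208%. Hepatocyte markers (albumin, transthyretin, apolipoproteins and others, 28 genes) averaged 7.59 to 8.42 in log2(FPKM + 1) over the 5 groups, above the erythrocyte list at 2.55 to 3.88 and the cholangiocyte list at 1.29 to 1.6. No marker list held a gene at 0 in every library. The erythrocyte list (29 genes, among them globins) averaged 3.88 in H24h, 3.43 in R3h and 2.63 in N, and its summed FPKM spanned 644 to 2099 in H24h, 336 to 1426 in R3h and 239 to 513 in N. The cholangiocyte list (27 genes) averaged 1.29 in H12h and 1.6 in N, with sums of 122 to 154 FPKM in H12h and 172 to 295 FPKM in N. With 3 libraries against 3, an exact two-sided permutation test cannot go below 0.1, and 7 of 54 tests (9 marker lists in 6 comparisons) reached that p. Against N they were the erythrocyte list in H24h, the cholangiocyte list in H12h, the hepatocyte list in H3h (7.59 in H3h, 8.08 in N), the lymphocyte list in R3h (0.697 in R3h, 1.03 in N) and the exocrine pancreas list in H12h (0.0485 in H12h, 0.188 in N). The other 2 were the neutrophil and exocrine pancreas lists in H24h against H12h. A test without any true difference reaches 0.1 with a probability of 0.1, so several of the 54 would do so. Sums of the exocrine pancreas list were only 0.32 to 0.57 FPKM in H12h and 0.65 to 5.42 FPKM in N. Of 12 tested neutrophil markers, 11 had a log2 fold change below 0 in H12h against N (median -1.03) and 10 in H24h against N (median -1.44), with an exact p of 0.4 and 0.3 for the list. The part of these cells in the results below was not tested, and in whole liver fewer cells of a type and less RNA per cell cannot be told apart.

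Library R3h replicate 3 stood apart. Its mean correlation with its own group was 0.719, against 0.801 to 0.922 for the other libraries. Of the 67 tested copies, 13 (19.4%) were there at under 20% of the lowest value of the other 14 libraries, and in each other library none was. Over all 17502 tested genes the share in R3h replicate 3 was 8.64%, and in the other libraries it was at most 0.52%. The copies concerned included hnf4a 110532634, at 1.07 FPKM in R3h replicate 3 and 13.6 to 38.4 FPKM elsewhere. The RXR copies rxrba 110506642 had 0.27 FPKM there and 9.02 to 16.9 FPKM elsewhere, and rxraa 110520500 had 0.14 FPKM there and 3.95 to 7.45 FPKM elsewhere. Nr1h3 110506299, an LXR copy, had 0.09 FPKM there and 1.79 to 6.74 FPKM elsewhere. For some symbols a sister copy kept its level in that library, as hnf4a 110492032 at 8.52 FPKM and Nr1h3 100286817 at 2.30 FPKM show. For others a further copy was low too: rxraa 110522918 had 0.00 FPKM there and 0.75 to 2.84 FPKM elsewhere, and Ppard 110494977 and PPARD 110494988 had 0.04 and 0.00 FPKM there. The Ppard and PPARD models lie 1.85 kb apart on the same strand of chromosome 17. Whether they are parts of 1 gene was not tested. H12h replicate 3 differed from H12h replicates 1 and 2 for several C/EBP and PPAR copies below. Its mean correlation with its own group was 0.87, and 0.0343% of all tested genes were under 20% of the lowest other library. Calls that appear only when 1 or both of these libraries are left out are given as such, a choice made after the values were seen. H12h replicate 3 was picked by values of the copies themselves, so calls of copies without it are not independent support.

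**Figure D2:**
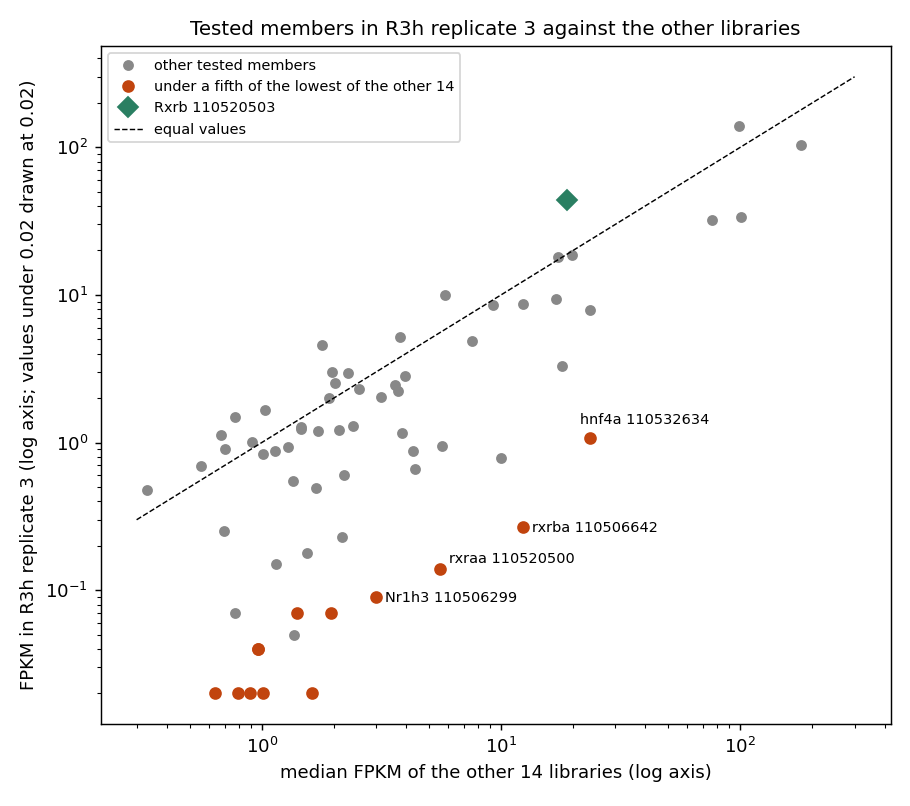
FPKM of the 67 tested copies in R3h replicate 3 against their median in the other 14 libraries (both log axes; the dashed line marks equal values). The 13 orange copies lie under 20% of the lowest of the other libraries, with hnf4a 110532634 at 1.07 FPKM, while Rxrb 110520503 (green) lies above the line at 43.7 FPKM.

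Few copies passed the test across groups. A call is an adjusted p under 0.05 in edgeR's quasi-likelihood test with Benjamini-Hochberg adjustment over all 17502 tested genes. In H3h against N, 0 of 67 copies were called, against 0.0% of all tested genes. There 6 copies (8.96%) had an unadjusted p under 0.05, against 2.19% of all genes. All 6 were lower in H3h, where 1.56% of all genes were lower and 0.634% higher, and DESeq2 (0.0801% of all genes) and limma also called 0 copies. In H12h against N, 0 copies were called, against 0.223% of all genes. Here 17 copies (25.4%) had an unadjusted p under 0.05, against 14.3% of all genes. Of these, 7 were higher in H12h (7.96% of all genes) and 10 lower (6.35%), and DESeq2 called 4 copies, against 4.73% of all genes. In H24h against N, 0 copies were called, against 0.2% of all genes, and 3 copies had an unadjusted p under 0.05, against 19.7% of all genes. All 3 were higher in H24h, where 9.78% of all genes were higher and 9.88% lower, and DESeq2 called 1 copy, against 7.19% of all genes. In R3h against N, 1 copy was called, against 5.34% of all genes, and it was higher in R3h, as were 3.55% of all genes. An unadjusted p under 0.05 was found for 7 copies, against 26.6% of all genes, with 5 higher (14.2%) and 2 lower (12.3%). DESeq2 called 3 copies there, against 15.9% of all genes. Asked whether a copy differed in any way among the 5 groups, the test called 3 copies (4.48%), against 7.24% of all genes, all 3 of them retinoid X receptors.

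R3h was also compared with H24h, and H24h with H12h. In R3h against H24h, 0 copies were called, against 0.0% of all genes, and 5 had an unadjusted p under 0.05, against 7.36%, with 1 higher (5.23%) and 4 lower (2.14%). DESeq2 (0.292% of all genes) and limma called 0 copies. In H24h against H12h, 0 copies were called, against 0.0% of all genes, and 13 had an unadjusted p under 0.05, against 14.5%, with 9 higher in H24h (6.5%) and 4 lower (8.0%). DESeq2 called 4 of these 67 copies, against 4.69% of all genes. The comparisons with N share the N libraries, and those with H12h or H24h share libraries too. The median log2 fold change of the 67 copies was -0.16 in H3h and -0.33 in H12h, then 0.01 in H24h and -0.19 in R3h, each against N, beside 0.00, -0.07, -0.05 and -0.04 for all tested genes. Below 0 were 43, 41, 33 and 40 of the 67 copies, beside 49.9%, 53.9%, 52.3% and 51.6% of all genes. In H24h against H12h the median was 0.22 and 27 copies were below 0, beside 0.02 and 48.8% for all genes. These medians moved with single libraries. Without R3h replicate 3, R3h against N had -0.05 and 34 copies below 0, beside -0.06 for all genes. Without R3h replicate 2 it had -0.48 and 46, beside -0.07. Without H24h replicate 1, H24h against N had -0.20 and 44, beside -0.09, and H24h against H12h had 0.03 and 32, beside -0.03. Without N replicate 2, H12h against N had -0.11 and 37, beside -0.04. In R3h against H24h the median was -0.21 and 45 copies were below 0, beside -0.01 and 50.7%, but 0.05 and 29 copies without H12h replicate 3 and R3h replicate 3. With H12h replicate 3 and R3h replicate 3 both left out, 13 copies were called in H12h against N (8.04% of all genes), 10 in H24h against H12h (5.9%), 3 in R3h against N (8.38%), 1 in H24h against N (5.58%) and 0 in H3h against N (0.0%), with 16 differing in any way among the groups (21.8%). The 13 in H12h had adjusted p of 0.00085 to 0.0332 by edgeR. These are not independent support, since H12h replicate 3 was picked by values of some of the same copies. Higher than N were PPARD 100136658, Nr1h3 110506299, hnf4a 110532634 and both copies each of CEBPB and Cebpd described below. Lower were PPARG 100505416, NR2F2 110495486, Foxa1 110497675, PROX1 110522431, rxrga 110508859 and rxrga 110530170. In H24h against H12h the adjusted p of the 10 were 0.00125 to 0.0387. PPARG 100505416, Foxa1 110497675, PROX1 110522431 and both rxrga copies were higher in H24h, and PPARD 100136658, Nr1h3 110506299, CREB3L3 110525970 and both Cebpd copies were lower. In R3h the 3 were Rxrb 110520503, PPARD 100136658 and rxraa 110520500, and in H24h it was Rxrb 110520503.

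The scale matters for directions. FPKM divides by the total of a library, while edgeR's trimmed-mean scaling sets the bulk of genes level. On log2(FPKM + 1) the median of all tested genes was -0.35 in H12h, -0.22 in H24h and -0.29 in R3h, each against N, where the edgeR medians were -0.07, -0.05 and -0.04. With a smaller pseudocount, on log2(FPKM + 0.1), the medians were -0.54, -0.34 and -0.47. FPKM values of those groups therefore read low beside the fold changes given here. With limma on log2(FPKM + 1), 54 of 67 copies were below 0 in H12h, 47 in H24h and 56 in R3h. In FPKM, the libraries of H12h lay wholly below those of N for 17 copies, against 28.0% of all genes, and wholly above for 2, against 3.71%. For R3h the counts were 12 below (21.6%) and 1 above (6.93%), and for H3h, where the scales hardly differ, 10 below (3.74%) and 2 above (2.94%).

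**Figure D3:**
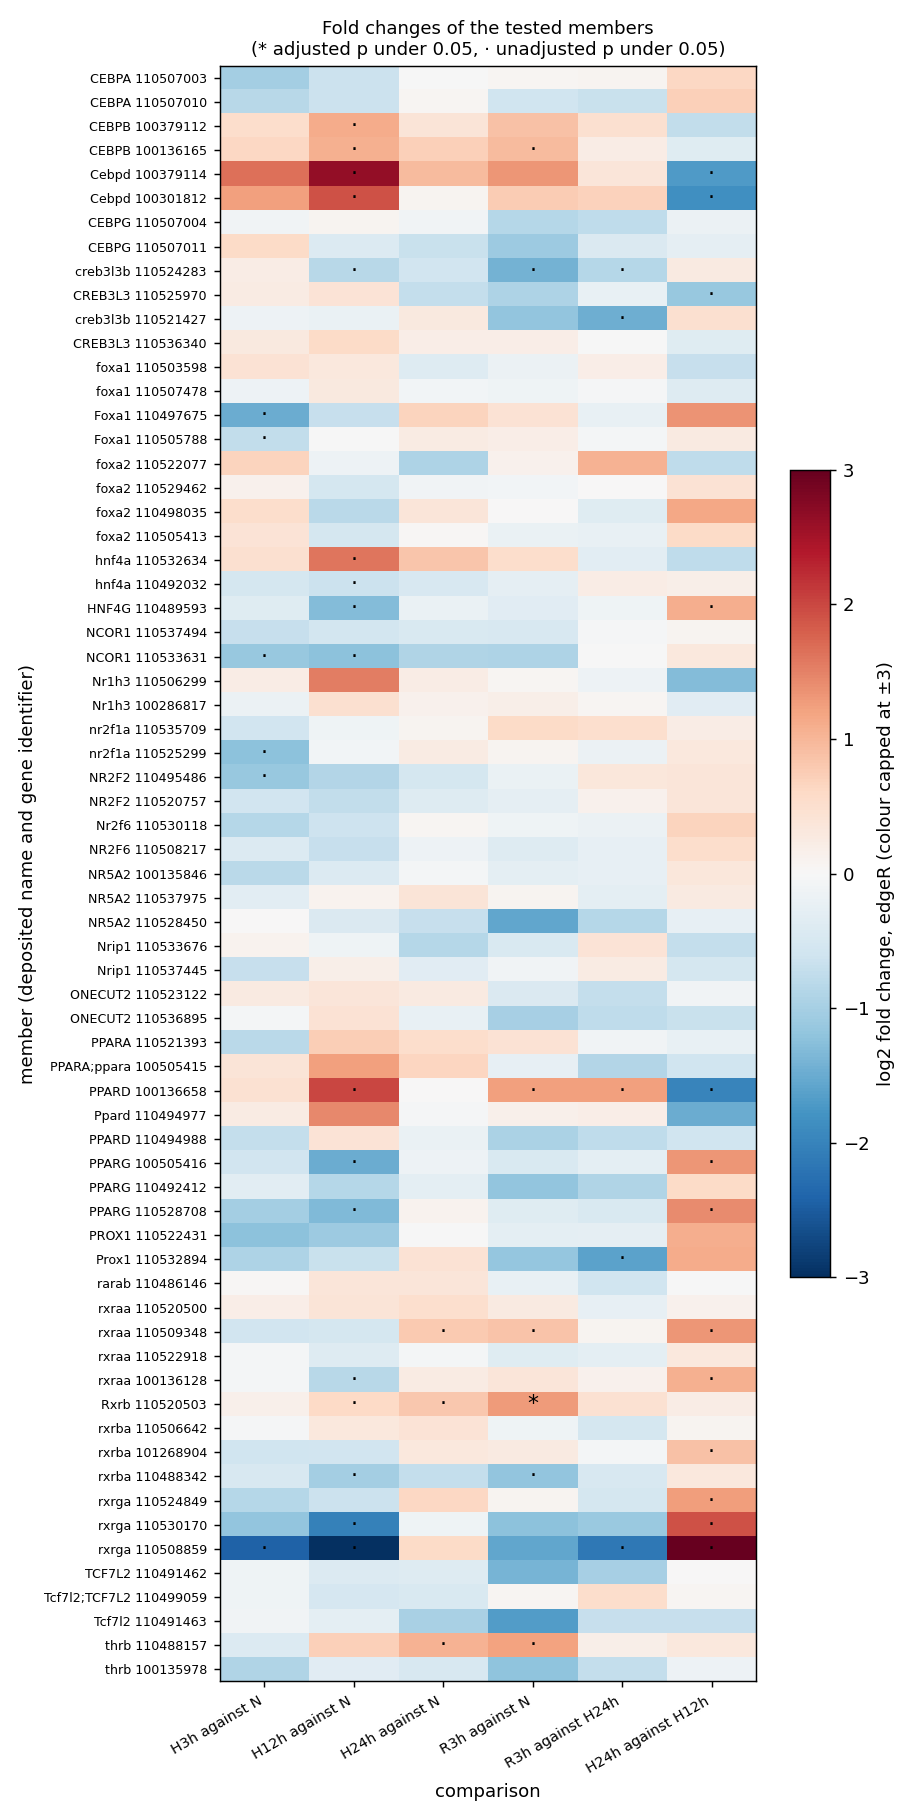
Log2 fold changes from edgeR for the 67 tested copies (rows) in 6 comparisons (columns), red for higher and blue for lower in the first group named; a star marks an adjusted p under 0.05 and a dot an unadjusted p under 0.05. The only star is Rxrb 110520503 in R3h against N (1.27), and all 11 RXR rows are red in H24h against H12h.

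The retinoid X receptors, shared partners of most of the other receptors here, held every called copy. Rxrb 110520503, on chromosome 3 from 72943859 to 72946982, plus strand, had 21.9, 29.0 and 43.7 FPKM in R3h, against 18, 15.7 and 16.9 FPKM in N. All 3 R3h libraries lay above all 3 N libraries. Its log2 fold change was 1.27 ± 0.273 (SE, n = 3 libraries a group), with an adjusted p of 0.0269 by edgeR's quasi-likelihood test with Benjamini-Hochberg adjustment. The level was 24.4, 15.7 and 19.1 FPKM in H3h, 16.5, 17.9 and 18.6 FPKM in H12h and 26.1, 19.1 and 26.8 FPKM in H24h. H24h lay above N in all 3 libraries too, with a log2 fold change of 0.81 ± 0.271 and an adjusted p of 0.151, and of 0.83 and 0.0481 by edgeR without H12h replicate 3 and R3h replicate 3. Without R3h replicate 3, the highest library, the edgeR log2 fold change in R3h was 0.99 with an adjusted p of 0.0336. Leaving out N replicate 1 or N replicate 3 ended the call, with adjusted p of 0.113 and 0.121, as did limma on log2(FPKM + 1), with 0.81 and an adjusted p of 0.0856, and edgeR on R3h and N alone, with an adjusted p of 0.255.

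The gene that lies next to Rxrb behaved differently in a single library. The deposited table places rxraa 110520500 on the same strand of chromosome 3, from 72937289 to 72943451, which leaves a gap of 407 bases to Rxrb 110520503. It had 6.23, 7.45 and 0.14 FPKM in R3h, against 5.60, 4.08 and 5.56 FPKM in N. R3h replicate 3 therefore held the lowest value of one model and the highest of its neighbour. Its edgeR log2 fold change in R3h against N was 0.26 with an adjusted p of 0.844, and without that library 0.85 with an adjusted p of 0.0467. The counting tool is not given, and whether reads were split between these 2 neighbouring models was not tested.

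Rxraa 110509348, on chromosome 29 from 23669165 to 23734794, plus strand, differed among the groups, with an adjusted p of 0.0263 by edgeR. It had 1.36, 2.2 and 2.95 FPKM in N, 1.48, 1.27 and 1.85 in H3h and 0.99, 1.03 and 1.17 in H12h, then 3.54, 2.39 and 3.32 in H24h and 2.64, 4.13 and 2.52 in R3h. Every H12h library lay below every library of the other groups, and H24h and R3h overlapped each other. In H24h against H12h the log2 fold change was 1.32 ± 0.316, with an adjusted p of 0.106. A second copy, rxraa 100136128, showed 0.50, 0.50 and 0.72 FPKM in H12h, against 1.57, 0.83 and 2.15 FPKM in N. These 2 groups did not overlap, and the edgeR log2 fold change of -0.84 ± 0.286 had an adjusted p of 0.201. In H24h it had 1.56, 0.94 and 1.79 FPKM, and H24h against H12h gave 1.08 ± 0.288 with an adjusted p of 0.13.

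Rxrga 110508859, an RXR gamma copy on chromosome 28 from 28430619 to 28458961, plus strand, was close to silent in H12h. It had 0.62, 1.57 and 0.98 FPKM in N, 0.19, 0.03 and 0.41 in H3h and 0.00, 0.03 and 0.00 in H12h, then 2.54, 0.78 and 0.87 in H24h and 0.15, 0.25 and 0.48 in R3h. H3h, H12h and R3h each lay wholly below N, while H24h overlapped N. With a mean of 0.593 FPKM the copy passed the limit of 0.5 FPKM through N and H24h, since every H3h, H12h and R3h value was under 0.5. Its selection for testing is therefore not independent of these group differences. Summed over a group it had 4 counts in H12h, against 424 in N, a ratio of 0.00915 per total count with an exact 95% interval of 0.00248 to 0.0236 that covers counting error only. H24h held 570 counts, 136 times as many per total count as H12h, with an interval of 52.7 to 500.0. The test of any difference gave an adjusted p of 0.032 by edgeR. The pairwise adjusted p was 0.0648 in H12h against N and 0.0652 in H24h against H12h, where fitted fold changes depend on the handling of zeros. Without R3h replicate 3 these were 0.0371 and 0.0356, and without H12h replicate 3 they were 0.0535 and 0.0463.

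The other tested RXR gamma copies also had their lowest group mean in H12h. Rxrga 110524849, the most abundant, had 3.50, 4.15 and 2.99 FPKM in H12h, against 8.29, 7.27 and 8.71 FPKM in N, and 11.4, 8.83 and 9.75 FPKM in H24h. H12h lay below both of these groups in all libraries. In FPKM 28.0% of all genes lay wholly below N in H12h, and the edgeR test of this copy there had no unadjusted p under 0.05. The edgeR log2 fold change in H24h against H12h was 1.27 ± 0.416 with an adjusted p of 0.19. Rxrga 110530170 had 0.28, 0.15 and 1.21 FPKM in H12h, against 1.6, 3.95 and 2.93 FPKM in N, with H12h replicate 3 nearest to N. Its log2 fold change of -2.04 ± 0.691 had an adjusted p of 0.2 by edgeR, and without H12h replicate 3 it was -3.14 with an adjusted p of 0.0351. Among the 11 tested RXR copies, a group singled out after the values were seen, all 11 had a log2 fold change above 0 in H24h against H12h, with a median of 0.89, where 40 of the 67 tested copies did. All 11 were also above 0 with DESeq2, with edgeR's other scaling and with limma on log2(FPKM + 1), and 10 of 11 without H12h replicate 1, H24h replicate 1 or H24h replicate 3.

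Summing the copies of each symbol before the fit, an alternative added after the data were seen, called rxrb in R3h against N, with a log2 fold change of 0.79 ± 0.219 and an adjusted p of 0.0389 by edgeR, where 9.28% of all names were called. Summed rxrg (adjusted p = 0.0198), rxra (0.0338) and rxrb (0.0482) differed among the 5 groups by edgeR, where 12.2% of all names did. Genes outside the symbols were summed only by the same deposited name, so their a and b copies stayed apart. Summed rxrg averaged 11.97 ± 1.27 FPKM in N, 6.31 ± 2.39 in H3h and 4.10 ± 0.288 in H12h, then 13.7 ± 3.78 in H24h and 7.73 ± 2.07 in R3h (SD, n = 3). The 3 called copies depended on single libraries in the test of any difference. Over the 15 fits that left out 1 library, edgeR called rxraa 110509348 in 9, rxrga 110508859 in 7 and Rxrb 110520503 in 4, with adjusted p of 0.0159 to 0.0989. None was called without N replicate 3, H3h replicate 1 or 2, H12h replicate 1, or H24h replicate 2 or 3. One RXRB copy lay on the other side: rxrba 110488342 had 0.48, 0.58 and 0.25 FPKM in R3h, against 1.35, 1.28 and 1.21 FPKM in N, without overlap, and a log2 fold change of -1.19 ± 0.459 with an adjusted p of 0.124 by edgeR.

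**Figure D4:**
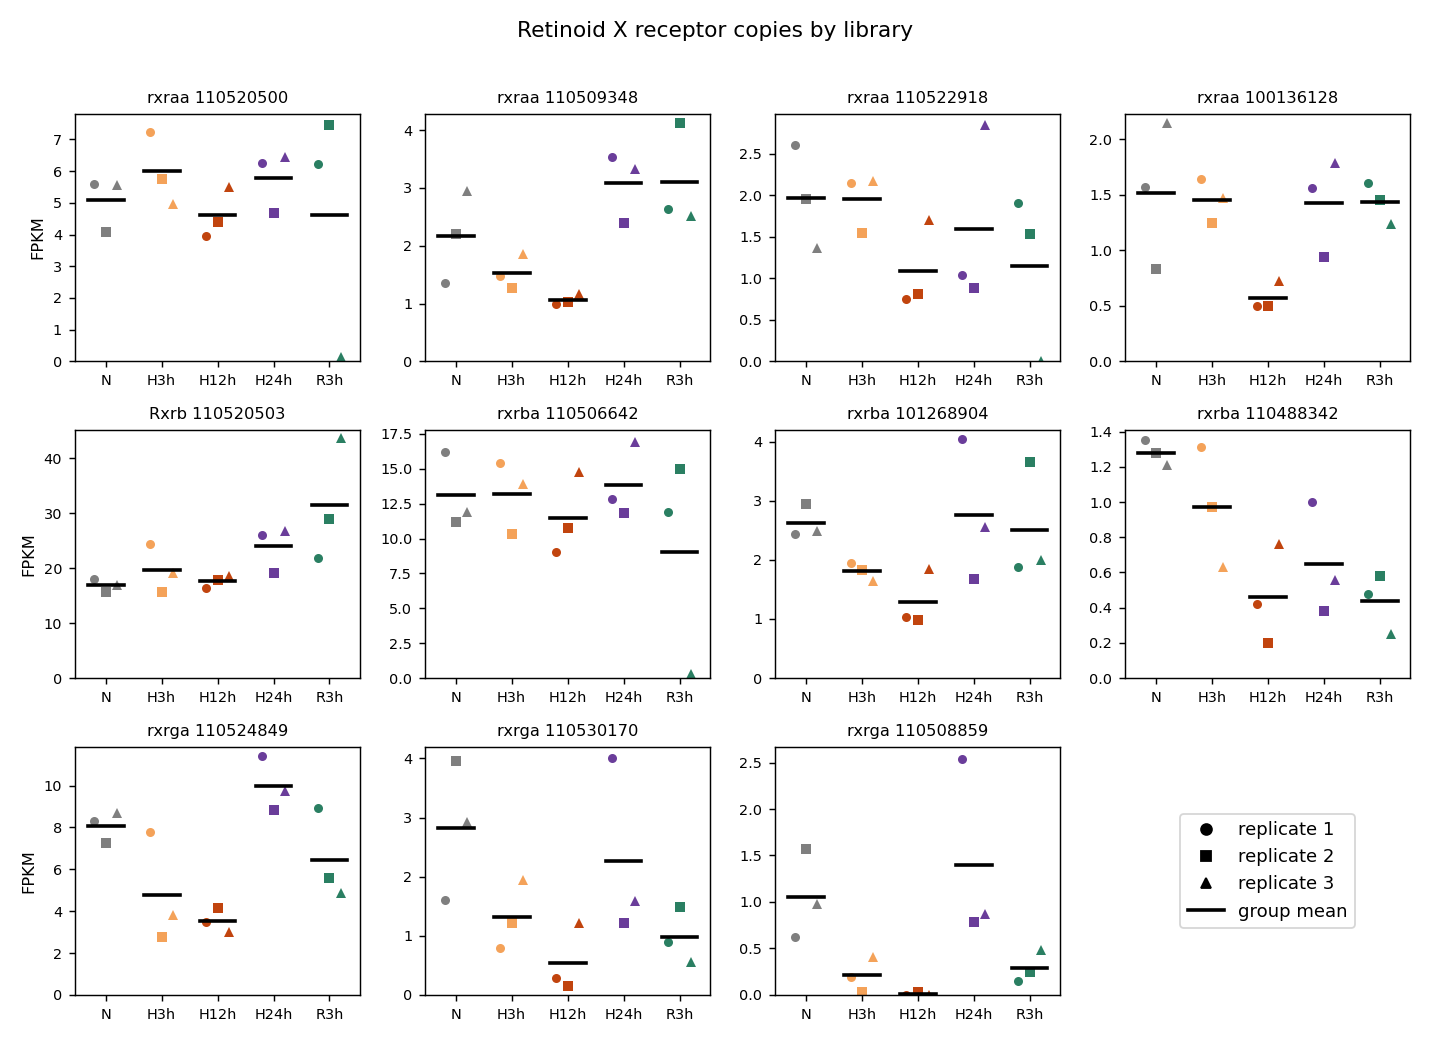
FPKM of the 11 tested retinoid X receptor copies by library (points, one marker a replicate) with group means (bars), groups in the order N, H3h, H12h, H24h and R3h. The 3 rxrga copies and rxraa 110509348 and 100136128 have their lowest group mean in H12h, Rxrb 110520503 reaches 43.7 FPKM in R3h replicate 3, and rxraa 110520500, rxraa 110522918 and rxrba 110506642 fall near 0 in that library.

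PPARs, the fatty acid sensors that pair with RXRs, differed by type in H12h, with PPARD 100136658 high and PPARG low in most libraries, though none was called. PPARD 100136658, on chromosome 7 from 62310913 to 62359684, plus strand, encodes the broadly expressed delta form. It had 5.72, 7.10 and 2.22 FPKM in H12h, against 1.84, 1.40 and 2.54 FPKM in N, and H12h replicate 3 lay within the range of N. The edgeR log2 fold change was 1.99 ± 0.514 with an adjusted p of 0.103. Without H12h replicate 3 it was 2.40 with an adjusted p of 0.015, and without R3h replicate 3 it was 2.03 with 0.0381. In H24h it had 1.72, 1.16 and 1.80 FPKM, below every H12h library, and H24h against H12h gave -1.99 ± 0.514 with an adjusted p of 0.126 by edgeR. Without H12h replicate 3 that comparison gave -2.39 with an adjusted p of 0.0193, and without R3h replicate 3, -2.00 with 0.043. In R3h it had 4.35, 4.54 and 1.30 FPKM, with replicate 3 again the low one. The edgeR log2 fold change against N was 1.23 with an adjusted p of 0.143, and without R3h replicate 3 it was 1.64 with an adjusted p of 0.0458. The test of any difference gave this copy an adjusted p of 0.0507.

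PPAR gamma, the receptor best known for fat storage, had lower values in H12h. PPARG 100505416 had 1.77, 1.24 and 2.92 FPKM in H12h, against 5.93, 7.15 and 10.04 FPKM in N, with no overlap. The edgeR log2 fold change was -1.50 with an adjusted p of 0.23, and without R3h replicate 3 it was -1.46 with an adjusted p of 0.0491. PPARG 110528708 had 0.97, 0.28 and 0.37 FPKM in H12h, against 0.94, 2.44 and 2.21 FPKM in N, overlapping by 1 library. PPARA, the main PPAR of fatty acid oxidation in mammalian liver, was not called in any group. Its most abundant copy, 110521393, averaged 1.78 ± 0.63 FPKM in N, 1.05 ± 0.0808 in H3h and 2.197 ± 1.21 in H12h, then 2.16 ± 1.41 in H24h and 1.82 ± 1.16 in R3h (SD, n = 3).

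The C/EBP factors that drive the acute-phase response gave no call. Summed cebpd had 127 to 178 FPKM in H3h and 24.4 to 299 FPKM in H12h, against 20.4 to 100 FPKM in N. Summed cebpb overlapped N in both groups, with 261 to 351 FPKM in H3h and 149 to 396 FPKM in H12h, against 117 to 321 FPKM. Cebpd 100379114, on chromosome 28 from 13740979 to 13742014, plus strand, encodes C/EBP delta. It had 77.2, 12.97 and 21.5 FPKM in N, 139, 112 and 88.4 in H3h and 169.5, 234 and 18.4 in H12h, then 71.5, 43.3 and 49.0 in H24h and 75.3, 93.9 and 32.1 in R3h. All H3h libraries lay above all N libraries, whereas H12h held the highest value and one close to the lowest. The edgeR log2 fold change in H3h against N was 1.64 with an adjusted p of 1.0. In H12h against N it was 2.64 ± 0.802 with an adjusted p of 0.159, and without H12h replicate 3 it was 3.18 with an adjusted p of 0.0157. Cebpd 100301812 had the same spread, with 35.2, 64.7 and 6.06 FPKM in H12h, against 22.9, 7.45 and 15.2 FPKM in N. Its edgeR log2 fold change was 1.92 with an adjusted p of 0.274, without H12h replicate 3 it was 2.44 with 0.0552, and without R3h replicate 3 as well it was 2.49 with 0.0183.

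CEBPB 100136165 had 143, 105 and 69.0 FPKM in H12h, against 104.8, 54.4 and 66.8 FPKM in N. The groups overlapped, and the edgeR log2 fold change of 1.08 ± 0.354 had an adjusted p of 0.188. Without H12h replicate 3 it was 1.37 with an adjusted p of 0.0417. The more abundant copy, CEBPB 100379112, averaged 131.5 ± 78.1 FPKM in N, 187 ± 34.5 in H3h and 181 ± 90.1 in H12h, then 133.5 ± 44.7 in H24h and 176.5 ± 69.1 in R3h (SD, n = 3), with no call. In H12h against N its edgeR log2 fold change was 1.11 with an adjusted p of 0.32, and 1.56 with 0.0244 without H12h replicate 3 and R3h replicate 3. C/EBP alpha, the metabolic form that is dominant in resting hepatocytes, spread widely within groups and gave no call. CEBPA 110507003 had 7.94, 1.86 and 13.9 FPKM in H12h, against 17.7, 10.8 and 22.2 FPKM in N. Its means were 16.9 ± 5.75 FPKM in N, 8.92 ± 7.28 in H3h and 7.88 ± 5.995 in H12h, then 13.3 ± 5.67 in H24h and 13.1 ± 3.87 in R3h (SD, n = 3). The deposited coordinates place the 2 CEBPA copies and the 2 CEBPG copies on chromosome 26, and CEBPA 110507010 had 0.79 FPKM in R3h replicate 3, where CEBPA 110507003 had 8.67 FPKM.

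CREB3L3 (CREBH) is a membrane-bound factor of the endoplasmic reticulum that acts in acute-phase and lipid genes. Its main copy, creb3l3b 110524283, lies on chromosome 5 from 59570140 to 59578123, minus strand. It had 269, 119.7 and 151 FPKM in N, 222, 253 and 148 in H3h and 58.3, 66.8 and 80.1 in H12h, then 134.9, 75.0 and 74.3 in H24h and 38.3, 81.7 and 33.7 in R3h. Every H12h and R3h library lay below every N library. The edgeR log2 fold change in R3h was -1.42 ± 0.395 with an adjusted p of 0.0514, just outside the threshold, and in H12h -0.84 with an adjusted p of 0.347. Without R3h replicate 3, its lowest library, edgeR gave -1.18 in R3h with an adjusted p of 0.0877. Without H12h replicate 3 it gave -1.42 with 0.061. DESeq2 on all libraries called this copy in R3h, with -1.41 and an adjusted p of 0.00544. With the creb3l3 copies summed, edgeR gave -1.28 ± 0.356 in R3h and an adjusted p of 0.0399. The minor copy creb3l3b 110521427 had 2.37, 3.56 and 0.66 FPKM in R3h, against 4.43, 6.91 and 7.05 FPKM in H24h. These groups did not overlap, with a log2 fold change of -1.47 ± 0.595 and an adjusted p of 0.67 by edgeR, and -1.04 with an adjusted p of 1.0 without R3h replicate 3, the lowest library.

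**Figure D5:**
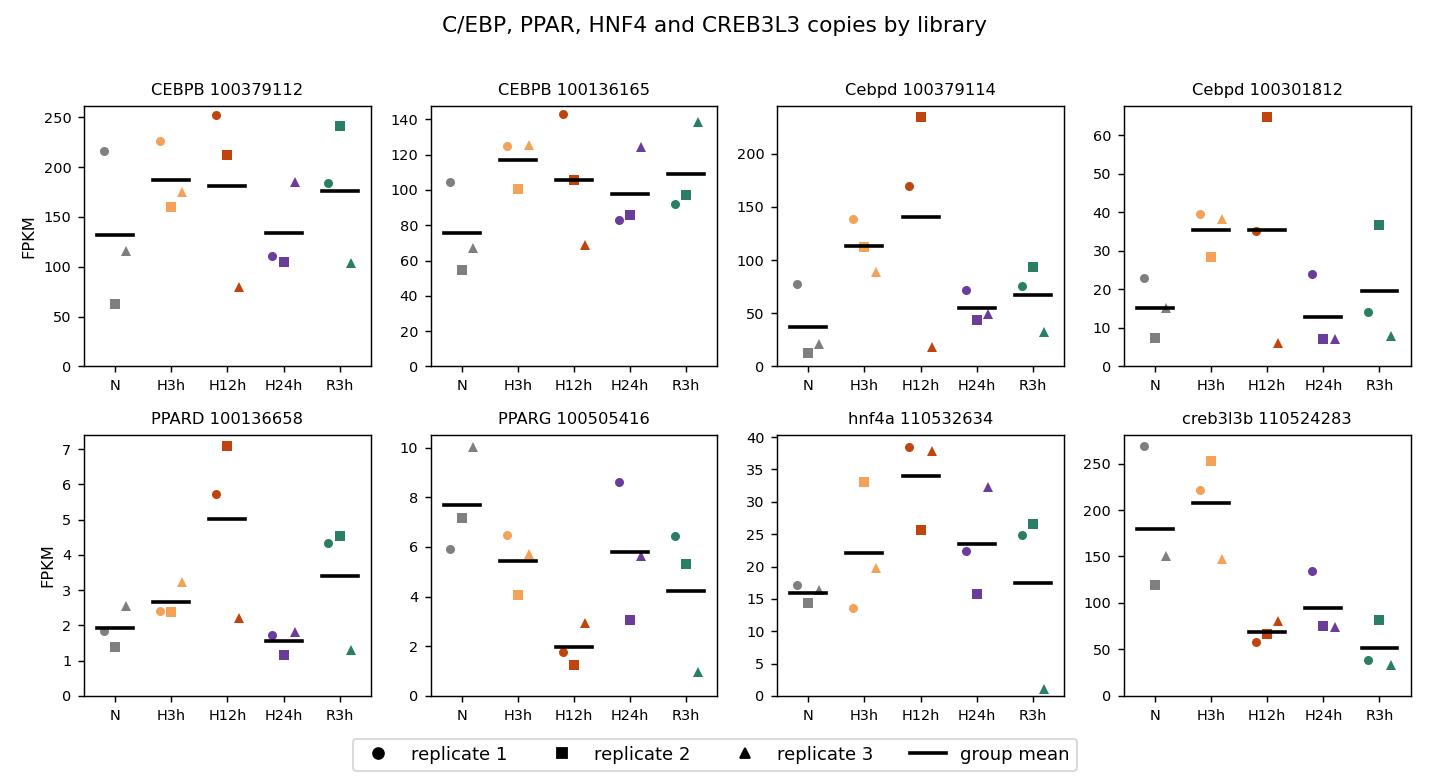
FPKM by library (points, one marker a replicate) and group mean (bars) for 8 copies of cebpb, cebpd, ppard, pparg, hnf4a and creb3l3. Groups are in the order N, H3h, H12h, H24h and R3h. H12h replicate 3 (triangle) sits at 18.4 FPKM for Cebpd 100379114 beside 169.5 and 234 FPKM, and all H12h and R3h values of creb3l3b 110524283 lie below those of N.

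HNF4A, a constitutive regulator of most hepatocyte genes, had fold changes of opposite sign in its 2 tested copies, neither called. Hnf4a 110532634, on chromosome 9 from 56496286 to 56503952, minus strand, had 38.4, 25.6 and 37.9 FPKM in H12h, against 17.1, 14.3 and 16.4 FPKM in N, with no overlap. Its edgeR log2 fold change was 1.60 with an adjusted p of 0.347, and without R3h replicate 3, where it is nearly absent, 1.64 with an adjusted p of 0.0397. Hnf4a 110492032 had 5.14, 4.06 and 8.56 FPKM in H12h, against 12.02, 13.09 and 13.03 FPKM in N, also with no overlap. Its log2 fold change of -0.65 had an adjusted p of 0.32 by edgeR. Summed over the copies, hnf4a averaged 39.9 ± 8.97 FPKM in H12h and 28.6 ± 1.09 FPKM in N (SD, n = 3). HNF4G 110489593, the gamma form, had 0.79, 0.34 and 0.66 FPKM in H12h, against 1.21, 2.63 and 2.16 FPKM in N, with an adjusted p of 0.22.

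FOXA1 and FOXA2, the pioneer factors that open liver enhancers, gave no call. Foxa1 110503598 averaged 22.9 ± 6.45 FPKM in N, 30.8 ± 6.06 in H3h and 18.7 ± 6.75 in H12h, then 14.3 ± 4.89 in H24h and 15.5 ± 5.51 in R3h. Foxa2 110522077 averaged 23.4 ± 14.9 FPKM in N, 36.2 ± 5.33 in H3h and 12.9 ± 7.65 in H12h, then 9.58 ± 4.06 in H24h and 18.7 ± 5.87 in R3h. For this foxa2 copy the SD within N exceeded the distance of every other group mean from that of N. Among the minor copies, Foxa1 110497675 had 1.85, 0.66 and 1.75 FPKM in H3h, against 2.49, 4.50 and 3.91 FPKM in N, with no overlap, a log2 fold change of -1.48 ± 0.635 and an adjusted p of 1.0 by edgeR. PROX1 110522431, a factor of liver growth and lipid control, averaged 5.62 ± 1.96 FPKM in N, 2.63 ± 0.911 in H3h and 2.12 ± 2.22 in H12h, then 4.77 ± 1.20 in H24h and 3.71 ± 1.34 in R3h. In H12h against N its edgeR log2 fold change was -1.09 with an adjusted p of 0.425, and -2.14 with 0.0332 without H12h replicate 3 and R3h replicate 3. Its sister Prox1 110532894, which the RefSeq table names as another PROX gene, had 1.37, 1.82 and 0.23 FPKM in R3h, against 4.32, 2.70 and 3.99 FPKM in H24h, with an adjusted p of 0.67.

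The orphan receptors of the COUP family (NR2F1, NR2F2 and NR2F6), which compete with HNF4A and RXR partners for binding sites in mammals, had log2 fold changes below 0 for 6 of 6 tested copies in H3h and in H12h against N. Their medians were -0.72 in H3h and -0.65 in H12h, where 49.9% and 53.9% of all tested genes were below 0. Without N replicate 2, the median was -0.29 in H3h with 6 of 6 below 0, and -0.21 in H12h with 4 of 6. Without H12h replicate 2, the median in H12h was -0.41 with 4 of 6 below 0. This family, too, was singled out after the values were seen. NR2F2 110495486 had 1.62, 0.88 and 6.23 FPKM in H12h, against 4.32, 8.08 and 8.11 FPKM in N, and H12h replicate 3 lay inside the range of N. The edgeR log2 fold change was -0.88 with an adjusted p of 0.438, and without that library -1.89 with an adjusted p of 0.0284. In H3h the same copy had 3.92, 3.27 and 2.84 FPKM, all below N, with an adjusted p of 1.0. Nr2f1a 110525299 had 1.62, 2 and 1.2 FPKM in H3h, against 1.94, 6.27 and 1.97 FPKM in N, with -1.23 ± 0.53 and an adjusted p of 1.0.

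LXR, NR5A2 and the thyroid hormone receptor gave no call. Nr1h3 110506299 had 6.74, 6.07 and 2.87 FPKM in H12h, against 3.36, 2.27 and 2.51 FPKM in N, with H12h replicate 3 inside the range of N. Its edgeR log2 fold change was 1.52 with an adjusted p of 0.404, and with H12h replicate 3 and R3h replicate 3 both left out it was 1.91 with an adjusted p of 0.00743. NR5A2 100135846, a regulator of bile acid synthesis, averaged 5.11 ± 1.28 FPKM in N, 3.21 ± 1.42 in H3h and 2.81 ± 0.756 in H12h, then 4.23 ± 1.96 in H24h and 3.37 ± 2.50 in R3h. Thrb 110488157 had 1.78, 2.93 and 4.61 FPKM in R3h and 5.88, 1.21 and 1.84 FPKM in H24h, against 1.79, 1.5 and 1.86 FPKM in N. H24h replicate 1 and R3h replicates 2 and 3 lay above N while the others did not, and the edgeR adjusted p was 0.111 in R3h and 0.225 in H24h. The other thrb copy, 100135978, was at 0.00 FPKM in R3h replicate 3 and 0.48 to 2.57 FPKM elsewhere.

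The corepressors NCOR1, which silences unliganded receptors, and NRIP1 (RIP140) were also uncalled. NCOR1 110533631 had 2.11, 1.65 and 1.79 FPKM in H3h and 1.38, 0.90 and 1.26 FPKM in H12h, against 2, 5.09 and 4.23 FPKM in N. H12h lay below N in all libraries, and H3h overlapped N by 1 library. The edgeR log2 fold change was -1.15 ± 0.435 in H3h with an adjusted p of 1.0, -1.23 in H12h with 0.218 and -0.91 ± 0.433 in H24h with 0.262. The tested copies of onecut2, tcf7l2 (a WNT effector), nrip1 and cebpg had no unadjusted p under 0.05 in any of the 6 comparisons.

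Lists of known targets and partners, chosen with earlier results of these data known, were counted beside the factors. Of 55 tested targets of HNF4A, FOXA and CEBPA, 50 had a log2 fold change above 0 in H12h against N, with a median of 0.62, beside 53.9% of all genes below 0 and a median of -0.07. Of these targets 0 were called by edgeR, against 0.223% of all genes, and 11 had an unadjusted p under 0.05, against 14.3%. The shift was not particular to H12h. Against N, 43 of the 55 were above 0 in H24h (median 0.56), 35 in R3h (0.30) and 11 in H3h (-0.195). Of all genes 52.3%, 51.6% and 49.9% were below 0 there. In H12h against N, 25 of 27 tested hepatocyte markers (median 0.61) and 24 of 26 erythrocyte markers (median 1.13) were above 0 too. Over libraries, the exact permutation p of these marker lists there was 0.5 and 0.4. Many hepatocyte markers, such as alb, ttr, apoa1, apob, tf and hpx, are themselves on this target list, so those counts overlap. The markers fga, fgb and fgg are likewise on the acute-phase list below. The part of the marker lists in the counts of targets was not tested. In R3h against N, 2 targets rose and 1 fell, where 5.34% of all genes were called. Tat 110518121, tyrosine aminotransferase, had 280.2, 171 and 184 FPKM in R3h, against 98.0, 64.7 and 69.9 FPKM in N, and rose by 1.88 ± 0.447 on the log2 scale with an adjusted p of 0.0336. TTR 110524641, transthyretin and also a hepatocyte marker here, rose by 2.22 ± 0.577 with an adjusted p of 0.0431, and F10 110485251, coagulation factor X, had a log2 fold change of -2.04 ± 0.487 with an adjusted p of 0.0337. Of 36 acute-phase targets of CEBPB, CEBPD and CREB3L3, 31 were above 0 in H12h against N (median 0.66) and 32 below 0 in H24h against H12h (median -0.74), with 0 called by edgeR in both and an unadjusted p under 0.05 in 8 and 10. Of all genes, 53.9% and 48.8% were below 0, 0.223% and 0.0% were called, and 14.3% and 14.5% had such a p.

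In R3h against N, 3 of the 36 acute-phase targets were called, against 5.34% of all genes. CRP 110491696, C-reactive protein, had 519, 389 and 548 FPKM in R3h, against 129, 146 and 171 FPKM in N, and rose by 2.09 ± 0.324 with an adjusted p of 0.0123 by edgeR. ITIH4 110528434 rose by 2.45 ± 0.643 (adjusted p = 0.0444), and Socs3 110499415, a feedback inhibitor of cytokine signalling, fell by 2.94 ± 0.732 (0.0377). Of 43 PPARA targets, 1 was called, in H12h against N, where 0.223% of all genes were. As a list these targets hardly moved there, with 22 above 0, 21 below and a median log2 fold change of 0.015. ACSL1 110504725, a fatty acid activating enzyme, had 0.04, 0.05 and 0.08 FPKM in H12h, against 1.46, 0.45 and 1.76 FPKM in N, and fell by 3.81 ± 0.667 with an adjusted p of 0.0336. Over the 15 fits that left out 1 library, edgeR called it in 6, with adjusted p of 0.0205 to 0.204. The call was lost without any 1 of the N libraries, H3h replicate 1 or 3, H12h replicate 1 or 2, H24h replicate 2 or R3h replicate 1, and with H12h and N alone in the fit (0.143). Of 24 LXR, RAR and thyroid hormone receptor targets, dio1 110524052 (type 1 deiodinase) and LRAT 110534420 (a retinol storage enzyme, also on the stellate cell marker list) rose in R3h by 2.09 ± 0.445 and 2.35 ± 0.637, with adjusted p of 0.0261 and 0.0487, again where 5.34% of all genes were called.

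Of 43 tested coregulators, 36 had a log2 fold change below 0 in R3h against N, with a median of -0.59, beside 51.6% below 0 and a median of -0.04 for all genes. The 1 called was CREBBP 110487234, a histone acetyltransferase, which had 0.19, 0.75 and 0.25 FPKM in R3h, against 2.73, 1.30 and 3.37 FPKM in N, and fell by 2.25 ± 0.525 with an adjusted p of 0.0323. Of all genes 5.34% were called there. How far the median of this list rests on R3h replicate 3 was not tested. The edgeR test of any difference called 4 of the 43 coregulators, against 7.24% of all genes. It called 3 of 55 targets of HNF4A, FOXA and CEBPA and 4 of 36 acute-phase targets. Of the PPARA targets it called 2 of 43, and of the LXR, RAR and thyroid hormone receptor targets 2 of 24.

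The 9 calls of targets and coregulators in R3h against N depended on single libraries. With R3h and N alone in the fit, edgeR called 0 of 17502 genes, 2821 of which had an unadjusted p under 0.05, and the adjusted p of these 9 were 0.234 to 0.262. Without N replicate 1 it called 11 genes and without N replicate 3 it called 7, against 935 with all libraries, and none of the 9 was among them. Without R3h replicate 1, CRP 110491696 was the only one of the 9 still called. Without R3h replicate 3, edgeR no longer called CREBBP 110487234 (adjusted p = 0.0547), Socs3 110499415 (0.068), TTR 110524641 (0.0785) or LRAT 110534420 (0.0951), and without N replicate 2 it no longer called Tat 110518121 (0.0569) or LRAT 110534420 (0.0939). The log2 fold change of Socs3 110499415 was -1.95 without N replicate 1, and that of ITIH4 110528434 was 1.62 without R3h replicate 1. Leaving out a library of H3h, H12h or H24h ended the call in 8 of 9 fits for each of TTR, ITIH4 and LRAT, in 3 for F10 and Socs3 and in 2 for Tat, with adjusted p up to 0.0686. Over all 15 fits that left out 1 library, CRP was called in 13, dio1 in 12, CREBBP in 11, F10 and Tat in 9, Socs3 in 8, ITIH4 in 4, TTR in 3 and LRAT in 2.

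Other liver transcription factors and nuclear receptors (67 tested) and WNT targets (9 tested) had 0 calls by edgeR in all 6 comparisons. Of all genes, 0.0% to 5.34% were called. An unadjusted p under 0.05 was found for 1 to 16 of the 67 and 1 to 4 of the 9, beside 2.19% to 26.6% of all genes. The 1 of 67 came in R3h against N (26.6%) and the 16 in H24h against H12h (14.5%). The edgeR test of any difference called 3 of the 67 and 0 of the 9, against 7.24% of all genes. The smallest p of these transcription factors in H3h against N belonged to copies of Nr0b2 (SHP, a corepressor induced by bile acids). Nr0b2 110489598 had 0.23, 0.00 and 0.16 FPKM in H3h, against 0.74, 1.87 and 1.44 FPKM in N, with no overlap and an adjusted p of 1.0.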

How the data were processed

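The deposited table holds raw counts per gene for 15 liver libraries, per the file headers, and FPKM that the authors computed beside them. Reads were mapped with tools that include Bowtie2 2.2.8 and TopHat2 2.1.1, per the submitters' processing notes. Coordinates are those of the deposited table, whose build, like the annotation and the counting tool, is not given in the sources used here. A RefSeq table (assembly USDA_OmykA_1.1) held 90 of the 97 copies and served for names only. Counts were fitted with edgeR 4.0.16 (quasi-likelihood test, TMM scaling, 5 group means, 15 libraries in 1 fit) in R 4.3.3, for genes that averaged 0.5 FPKM or more. P-values are two-sided and adjusted by Benjamini-Hochberg over 17502 genes. Each SE is approximate, the size of the log2 fold change over the root of F. The scripts were tested on simulated data. Libraries held 45.4 to 70.4 M counts, and 3 libraries a group limit the precision. No 2 libraries of the same group agreed within sampling noise, and pairs from different groups were not compared in this way. Alternatives used DESeq2 1.42.0, limma 3.58.1 on log2(FPKM + 1) or log2(FPKM + 0.1), voom library weights, other scaling, no filter, a replicate block, fewer groups and each library left out.

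The members and lists were chosen with earlier results of these data known. Named are called copies, the 4 smallest p of each comparison, the most abundant copy of 12 symbols and, of each list, the called genes (at most 4). Other list genes, and copies named beyond this rule, were chosen after their values were seen.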

Additional observations from a re-analysis of the deposited data

How the results depend on the processing

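Over 52 results of single copies and 1248 alternative values, no direction reversed. These results were picked for a small p in the main fit, which makes a stable sign likely. Over all 67 tested copies directions did move. In R3h against H24h, 45 copies were below 0 with all libraries and 29 without R3h replicate 3. Counts of called copies moved more. DESeq2 called 4 in H12h against N (4.73% of all genes), 1 in H24h against N (7.19%) and 3 in R3h against N (15.9%). In H24h against H12h it called 4 (4.69%), and for any difference 11 (25.8%). Limma-voom with library weights called 33, 22, 13, 21 and 41 there, where it called 39.4%, 46.8%, 36.3%, 25.8% and 69.2% of all genes. Limma on log2(FPKM + 1) called 5 in R3h against N, all lower, where edgeR called 1, higher. It called 1892 of all 17502 genes there. For any difference it called 5 copies and 2035 of all genes. With log2(FPKM + 0.1) it called 1 in H12h and 2 in R3h, all lower, where it called 21 and 1464 of all genes. Without the filter, 1 was called in H12h against N (99 of 34965 genes) and 1 in H24h against H12h (35). With only the groups compared in the fit, 0 were called in R3h against N, and 0 of all genes.

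Of 30 pairs of same-numbered libraries, 8 had a correlation of deviations over 0.1 (range -0.193 to 0.355). Correlations of differently numbered libraries were not computed for reference, so whether same-numbered libraries pair was not tested. With a replicate block edgeR called 2 in R3h against N (628 of all genes, against 935) and 1 for any difference (613, against 1267).

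Leaving out 1 library gave 0 to 5 calls in H12h against N, 0 to 5 in R3h against N, 0 to 4 in H24h against H12h, 0 to 7 for any difference, and 0 to 0 in H3h and H24h against N and R3h against H24h. In H12h the 5 calls came without H12h replicate 3, where 546 of 17502 genes were called. In R3h they came without R3h replicate 2, where 2451 were. Over all genes these fits called 0 to 546 in H12h against N, 7 to 2451 in R3h against N and 0 to 685 in H24h against N. In H24h against H12h they called 0 to 393, and for any difference 199 to 2676. With H12h replicate 3 and R3h replicate 3 both out, an alternative added after the data were seen, 16 were called for any difference (21.8% of all genes). Against N, 13 were called in H12h (8.04%), 1 in H24h (5.58%) and 3 in R3h (8.38%). H24h against H12h gave 10 (5.9%). With copies summed, 2 symbols were called in R3h against N, where 9.28% of all names were. The cause of these changes was not tested. Copies under about 1 FPKM rest on few counts, and whether duplicates shared reads was not tested.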

Other observations

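Copies of 1 symbol were compared for direction. Of 25 symbols with 2 or more tested copies, all copies had the same sign of log2 fold change for 10 symbols (40%) in H24h against N, and for 12 (48%) in R3h against N. Among 4336 other deposited names with 2 or more tested copies, the shares were 66.7% and 63.9%. In H24h against H12h the order was the other way, with 18 of 25 symbols (72%) against 59.5% of the other names. The shares lay closer in H3h against N (52% against 58.1%), H12h against N (64% against 61.9%) and R3h against H24h (56% against 55.0%). The 2 sides were grouped by unlike rules. Copies of a symbol were joined ignoring a final copy letter a or b, while other genes were joined only by the same deposited name, ignoring case. Symbols and other names were also not matched for their number of copies, on which such a share depends. The difference between these shares was not tested.

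Among all tested genes there were 613 pairs of neighbours on 1 strand with the same deposited name, within 100 kb. In R3h replicate 3, only the upstream gene was below 20% of the lowest other library in 80 pairs, only the downstream gene in 46 and both in 30. In each of the other 14 libraries the counts were at most 6, 9 and 1.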
